A study of Mus musculus with 16 samples.

Results

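The genes described here are those that encode the translation initiation factors (gene names Eif1 to Eif6 with their subunit letters) and the translation elongation factors (names beginning Eef1 or Eef2) in mouse 8-cell embryos. They were chosen by name alone, leaving out the eIF2 kinases, whose names begin with Eif2ak. The rule found 66 of the 43437 genes in the table, and 60 of these were among the 11422 genes that were tested because 4 or more of the 16 libraries held 1 FPKM or more of them. FPKM is the number of sequenced fragments of a gene scaled to its length and to the size of the library.

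The libraries came from embryos injected as zygotes with double-stranded RNA (dsRNA), which depletes the transcript it matches. The 4 groups received dsRNA against GFP (the control, a sequence the embryos lack), against Tfap2c (which encodes an AP-2 transcription factor), against Tead4 (which encodes a TEA-domain transcription factor), or against both. Each group held 4 libraries, and each library was made from polyadenylated RNA of 10 embryos, about 80 cells. Libraries A1 and A2 came from C57BL/6J×CBA/J hybrid mothers (cross A), and B1 and B2 from C57BL/6J×DBA/2J hybrid mothers (cross B). All fathers were C57BL/6J×DBA hybrids, for which the strain numbers in the labels differ from library to library. The control embryos had also been injected, had their zonae removed and were grown in KSOM medium. All groups are pools of whole embryos in which transcripts were depleted, not embryos with a deleted gene. The labels do not say whether the libraries of a group came from separate collections, and the p values therefore speak only of the spread between these pools.

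Translation begins when the initiator tRNA, carried by eIF2, joins the small ribosomal subunit together with eIF1, eIF1A, eIF3 and eIF5. The mRNA is brought in by the cap-binding protein eIF4E, the scaffold eIF4G and the helicase eIF4A, and 4E-binding proteins compete with eIF4G for eIF4E. eIF2B recharges eIF2 with GTP, eIF5B joins the large subunit, and eEF1 and eEF2 then drive elongation. The embryo draws on maternal transcripts before its own genome is activated at the 2-cell stage, so the transcripts seen at the 8-cell stage can be of both origins.

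The depletion was visible in the libraries. Tfap2c was at 35.7 ± 6.6 FPKM (mean ± SD, n = 4 in this and all later values) in GFP embryos, 15.8 ± 1.65 with Tfap2c dsRNA and 16.2 ± 0.342 with both. Tead4 was at 48.6 ± 7 FPKM in GFP embryos, 7.66 ± 2.49 with Tead4 dsRNA and 9.49 ± 3.94 with both. It was also lower, at 28.3 ± 7.77 FPKM, with Tfap2c dsRNA alone. In each of these lowered groups all 4 libraries lay below all 4 GFP libraries (exact permutation test, two-sided p = 0.0286, the smallest p that 4 against 4 allows). The 8 markers of cumulus and granulosa cells summed to at most 0.165 FPKM in any library and the 6 sperm markers to at most 1.63. Among 6 blood markers only the alpha-globin genes Hba-a1 and Hba-a2 reached 1 FPKM. The blood list summed to 9.86 to 26.8 FPKM in GFP embryos, 29.3 to 63 with Tfap2c dsRNA, 20.3 to 50.9 with Tead4 dsRNA and 40.7 to 77.7 with both. These sums lay above all GFP sums with Tfap2c dsRNA and with both, and overlapped with them with Tead4 dsRNA. The 6 early embryo markers, which include Tfap2c and Tead4, summed to 244 to 330 FPKM in GFP embryos. They lay below all GFP sums with Tfap2c dsRNA (195 to 212) and with both (179 to 242). With Tead4 dsRNA (215 to 346) they overlapped. The 8 oocyte markers summed to 15.5 to 27.8 FPKM in GFP embryos and overlapped with that range in every group, reaching 56.7 with Tead4 dsRNA. The 4 later trophectoderm markers also overlapped in every group. The part of these markers in the results below was not tested. The total depth of each library is unknown. Its relative depth, estimated from the step size of low values, ran from 0.875 to 1.12 of the mean.

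Several sequences bear on how the values can be read. Eif1 and Eif1b encode near-identical forms of eIF1, the factor that keeps the ribosome scanning for a start codon. They behaved differently in these embryos, so it matters that their transcripts can be separated. Over 342 coding bases they differed at 64 (81.3% identical), and the longest identical run was 25 bases. Their opening 75 coding bases in the GENCODE vM1 transcripts are shown with the 10 differing bases in capitals.
Eif1: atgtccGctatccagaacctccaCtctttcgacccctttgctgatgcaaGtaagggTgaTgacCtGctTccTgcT
Eif1b: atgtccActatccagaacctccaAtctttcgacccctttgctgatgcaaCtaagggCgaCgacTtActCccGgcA

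By contrast, Eif3j1 and Eif3j2, which encode forms of the loosely bound eIF3j subunit, had no differing base over 786 aligned coding bases. Reads from their coding sequence cannot be divided between them, so their separate values are uncertain. Eif1a and Eif1ax, both encoding eIF1A, were 85.5% identical with a longest shared run of 28 bases. Eef1a1 and Eef1a2 were 80.7% identical, Eif4a1 and Eif4a2 78.1%, Eif5a and Eif5a2 73.2%, and Eif4ebp1 and Eif4ebp2 69.1%. The pseudogenes in the set were not aligned to the genes they are named after. Reads may be shared between them, so the values of the pseudogenes are uncertain. No alignment was obtained for Eif2s3x and Eif2s3y, so the bases they share are not given.

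RefSeq promoters (GRCm38.p6, 250 bases before to 50 after the start) were held for 46 members, 43 of them tested. A palindromic AP-2 motif, GCCNNNGGC on either strand, was sought in the 250 bases before the start, in any promoter of a gene. It stood in 11 of these 43 (25.6%), against 23% of the 7536 tested genes with a promoter and 15.4% of all 27025 genes with a promoter. It was held by 1 of the 4 members with a promoter that fell with Tfap2c dsRNA (Eif4h), by 1 of the 5 that rose (Eif4g3) and by 9 of the 34 that were not called. No promoter was held for Eif4ebp1, Eif1a, Eif2b3 and Eif3h, which also fell, or for Eif3j2, which rose. These genes were not searched. The motif was also held by Eif1b, which rose with Tead4 dsRNA. Windows around these 3 matches are shown on the gene's strand, with the motif in capitals.
Eif4h, chr5:134639432-134639480, minus strand: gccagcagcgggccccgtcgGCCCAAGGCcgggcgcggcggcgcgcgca
Eif4g3, chr4:137993309-137993357, plus strand: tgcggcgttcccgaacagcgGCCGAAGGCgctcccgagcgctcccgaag
Eif1b, chr9:120492514-120492562, plus strand: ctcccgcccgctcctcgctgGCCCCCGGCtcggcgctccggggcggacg

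The TEAD motif GGAATG on either strand was present in 3 of 43 members (6.98%), Eif3b, Eif2b5 and Eif3f, against 12.4% of tested genes. None of these 3 was called with Tead4 dsRNA against GFP. A match is a run of letters and not a measured binding site. The shares among members lay near those of the tested genes for AP-2 and below them for TEAD.

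Many mRNAs of the translation apparatus carry a terminal oligopyrimidine tract, a cytosine at the start followed by pyrimidines, through which mTORC1 controls their translation. The search took a C that follows a purine and opens a run of at least 6 pyrimidines within 5 bases of the annotated start. Such a run was found for 6 of the 43 members (14%), against 8.9% of tested genes. Those of Eef1a1 and Eif3f began before that start, at -5 and -4. A run is a stretch of letters near an annotated start, and not a mapped transcript start or a proven tract. The 3 windows below, with the run in capitals, are those of the most abundant of the 6 (Eef1a1), of a member called with Tfap2c dsRNA (Eif4g1) and of the member with the longest run (Eif3f).
Eef1a1, chr9:78481710-78481739, minus strand: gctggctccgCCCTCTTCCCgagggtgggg
Eif4g1, chr16:20672712-20672741, plus strand: cgccagcgcagctccgCCCTCTgcgccggt
Eif3f, chr7:108934400-108934429, plus strand: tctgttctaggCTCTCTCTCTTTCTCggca

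In GFP embryos the translation factor genes were abundant. Their median level was 137 FPKM, against 6.62 FPKM over all tested genes, and 51 of the 60 lay above that value. In all, 32 members (53.3%) reached 100 FPKM, which 11% of tested genes did, while 17 lay between 10 and 100 and 11 under 10. Together the members held 1.69% to 1.94% of all FPKM in a library. Their median coefficient of variation between control libraries was 9.85%, against 21.1% over tested genes. Those genes were not matched to the members in level, and the part of level in this gap was not tested. FPKM is scaled to length, which allows levels of different genes to be set side by side, but pre-amplification and reads shared by paralogs can shift them by an amount that is not known here.

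The most abundant member was Eif5a, which encodes the hypusine-bearing factor that relieves stalled ribosomes, at 1621 ± 160 FPKM. Next came Eef1a1, which delivers aminoacyl-tRNA, at 1414 ± 77.9, Eif2s2, the beta subunit of eIF2, at 1411 ± 148, and Eif5, which triggers GTP hydrolysis by eIF2, at 1039 ± 81. Eef1a1 and Eif2s2 did not differ beyond their spread, and the libraries of Eif5a (1492 to 1836 FPKM) overlapped with those of Eif2s2 (1257 to 1609). Eif1 (823 ± 108 FPKM), Eif4e (705 ± 182) and Eif3g (599 ± 35.1) followed.

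Genes for subunits of a single complex stood at very different levels. Of the 3 eIF2 subunits, Eif2s2 was at 1411 ± 148 FPKM, Eif2s1 (alpha) at 250 ± 13 and Eif2s3x (gamma, X-linked) at 76.9 ± 6.44. The Y-linked gamma gene Eif2s3y was at 21.7 ± 7.09 FPKM. Within eIF2B, Eif2b1 at 316 ± 42.1 FPKM was the highest and Eif2b5, the catalytic subunit, at 31.2 ± 3.64 the lowest. Among the 14 tested eIF3 genes the level ran from 599 ± 35.1 FPKM (Eif3g) through 150 ± 5.51 (Eif3a) and 35.6 ± 4.81 (Eif3b) to 11.7 ± 4.74 (Eif3f), with Eif3j2 at 11.7 ± 1.76 and Eif3j1 at 9.65 ± 1.12. The 3 last did not differ beyond their spread.

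**Figure D1:**
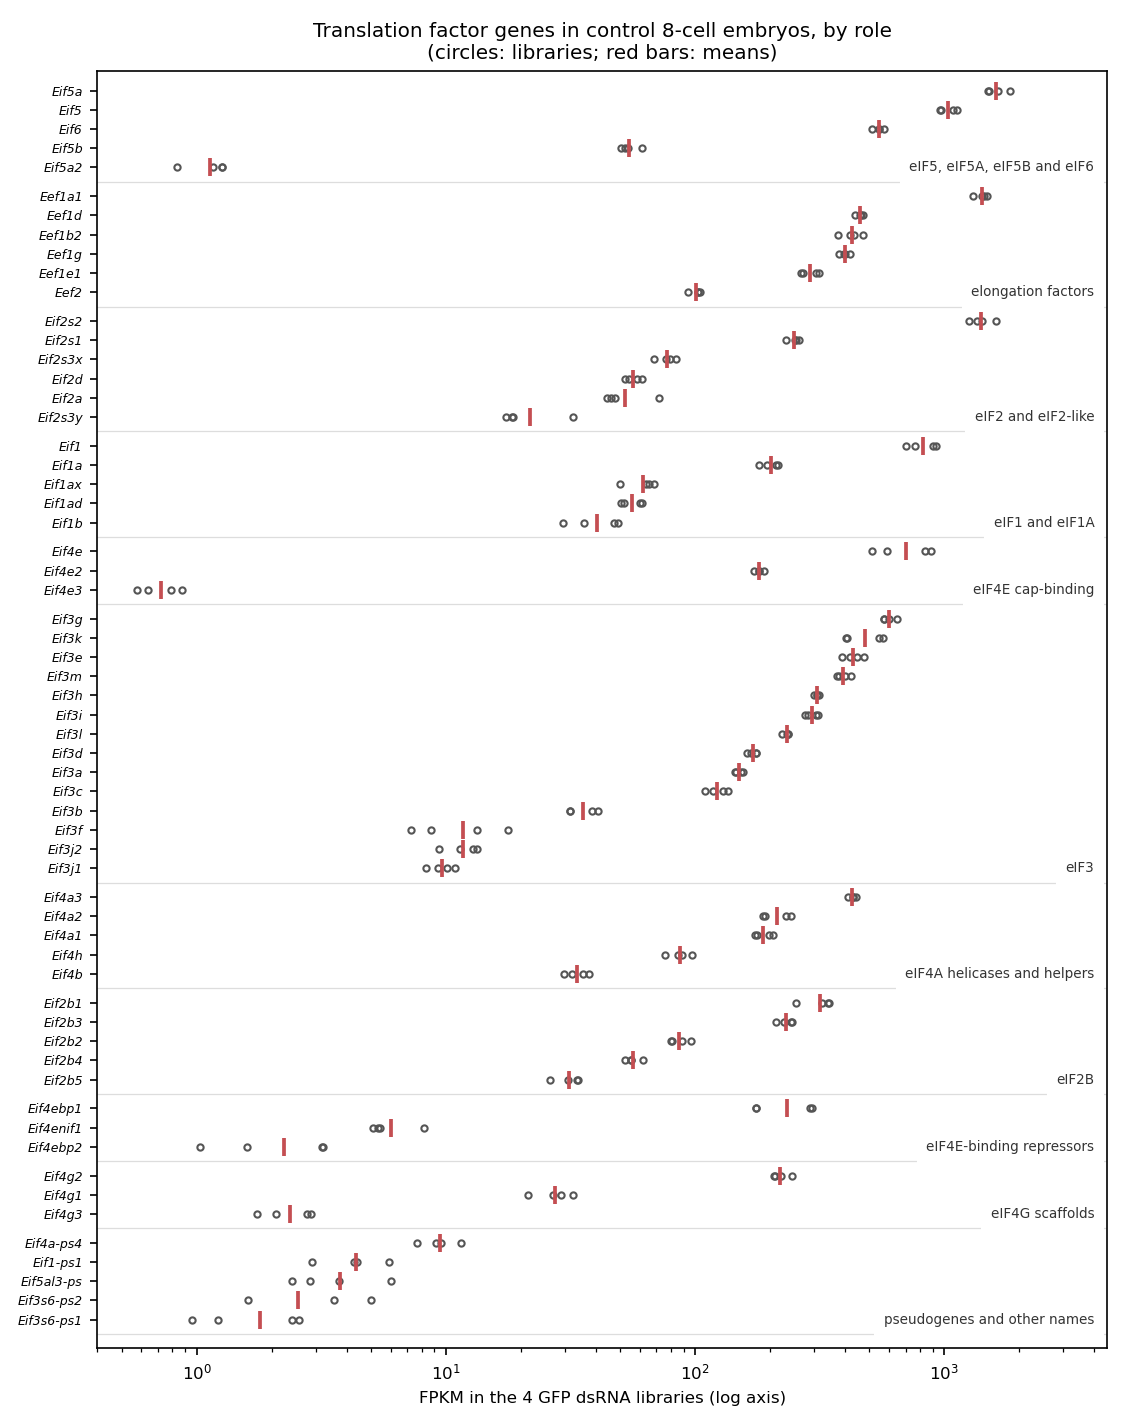
FPKM (log axis) of the 60 tested members in the 4 GFP libraries, by role; circles are libraries and red bars their means. Eif5a lies highest at 1621 FPKM and Eif4e3 lowest at 0.72, and 1 library of Eif3s6-ps2 listed at 0 is not drawn.

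Paralogs were used unequally. Eif4e (705 ± 182 FPKM) was accompanied by Eif4e2, a cap-binding protein that acts in repression, at 181 ± 6.82, and Eif4e3 was at 0.72 ± 0.136. The oocyte form Eif4e1b did not exceed 0.558 FPKM in any library. For the scaffolds, Eif4g2, which lacks the eIF4E-binding region, was at 220 ± 17.1 FPKM, the canonical Eif4g1 at 27.4 ± 4.55 and Eif4g3 at 2.37 ± 0.549. The helicase genes Eif4a1 (188 ± 15.4 FPKM) and Eif4a2 (213 ± 28.1) did not differ beyond their spread, and Eif4a3, a core of the exon junction complex, was at 428 ± 12.3. Among the 4E-binding proteins, Eif4ebp1 was at 234 ± 67.1 FPKM, Eif4ebp2 at 2.25 ± 1.11 and Eif4ebp3 at no more than 0.683. Eif5a2 was at 1.13 ± 0.203 FPKM beside Eif5a at 1621 ± 160.

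The 6 members that were not tested were Eef1a2, Eif1-ps3 and Eif2c5, listed at 0 in all 16 libraries, and Eef2k, Eif4e1b and Eif4ebp3. Eef2k, the kinase that restrains eEF2, reached at most 0.616 FPKM. Eif2c5 carries an Argonaute-type name and was annotated as a long non-coding RNA, so the name rule took it in without its being a translation factor.

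Tfap2c dsRNA lowered the transcripts of a regulator of the cap complex, of a start-site factor and of an eIF2B subunit. It raised those of eIF3j and of 2 of the 3 eIF4G scaffold genes, but not of Eif4g2, the most abundant. With both dsRNAs 0 of the 3 eIF4G genes were called. Of the 60 members, 14 (23.3%) passed the test at an adjusted p under 0.05 (limma, Benjamini-Hochberg over 11422 genes, in all comparisons), against 29.6% of all tested genes. In all, 6 rose (16.3% of tested genes rose) and 8 fell (13.2% fell). The 6 include Eif3j1 and Eif3j2, whose values cannot be separated. With libraries rescaled by median ratios the calls were 4 higher and 11 lower. The members' share was near that of all tested genes, and the difference was not tested. Their median absolute change was 0.131 on the log2(FPKM + 1) scale, against 0.270 over tested genes, which were not matched in level. All changes below are differences on that scale, which understates the change of low genes. All 14 called members moved the same way in both crosses. These directions come from the same libraries as the calls, so they are not a separate test. In pooled embryos, fewer cells of a type and less RNA per cell cannot be told apart.

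Eif4ebp1, whose product holds eIF4E away from eIF4G until mTORC1 phosphorylates it, had the largest change. It was at 175, 176, 290 and 294 FPKM in the GFP libraries A1, A2, B1 and B2, and at 130, 137, 73.3 and 80.9 with Tfap2c dsRNA. All 4 Tfap2c libraries were below all GFP libraries, and the gap was wider in cross B, where the controls were higher and the knockdown libraries lower. The change was -1.15 ± 0.24 (SE), adjusted p = 0.00239, with -0.40 in cross A and -1.91 in cross B. The test of this difference between crosses gave -1.51 ± 0.23 (adjusted p = 0.0526), just short of the threshold.

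Eif1a, encoding eIF1A, which works with eIF1 in scanning, was at 181, 195, 212 and 216 FPKM in the GFP libraries and at 108, 112, 123 and 136 with Tfap2c dsRNA. The groups did not overlap, and the mean with Tfap2c dsRNA was 59.5% of the control mean. The change was -0.75 ± 0.10 (adjusted p = 0.000113), with -0.77 in cross A and -0.72 in cross B. Its X-linked paralog Eif1ax did not pass the test and was at 61.8 ± 8.15 FPKM in GFP embryos and 66.6 ± 15 with Tfap2c dsRNA. The summed level of both eIF1A genes was 263 ± 22 FPKM in GFP embryos and 186 ± 15 with Tfap2c dsRNA.

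Eef1e1, an accessory protein of the aminoacyl-tRNA synthetase complex, was at 266, 305, 270 and 315 FPKM in GFP libraries and at 198, 202, 179 and 185 with Tfap2c dsRNA, with no overlap. It fell by 0.59 (SE 0.09, adjusted p = 0.000221). Eif2b3, the gamma subunit of the catalytic part of eIF2B, was at 246, 227, 212 and 243 FPKM in GFP libraries and 178, 177, 164 and 174 with Tfap2c dsRNA. It fell by 0.42 (SE 0.06, adjusted p = 0.000208), by nearly the same amount in cross A (-0.41) and cross B (-0.42). It was the only eIF2B gene of 5 that passed in this comparison.

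Eif5 fell from 1039 ± 81 FPKM to 820 ± 69.1 (change -0.34 ± 0.07, adjusted p = 0.00329). Eif2d, which can deliver initiator tRNA without eIF2 and recycles ribosomes, fell from 56.6 ± 4.06 to 38.6 ± 9.71 FPKM (-0.57 ± 0.17, adjusted p = 0.021), with -0.18 in cross A and -0.96 in cross B. Eif4h, a helper of eIF4A, fell by 0.35 and Eif3h, an eIF3 subunit, by 0.18. The call of Eif2d was lost without GFP B1, GFP B2, Tfap2c B1 or Tfap2c B2 (highest adjusted p over all alternatives 0.0733), and that of Eif4h without GFP A1, GFP B2, Tfap2c B1 or Tfap2c B2 (0.0773). That of Eif3h was lost without GFP A2, B1 or B2 or Tfap2c A2, B1 or B2 (0.0866).

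Among the genes that rose, the eIF3j pair had the largest change. Eif3j1 was at 8.31, 10.1, 10.9 and 9.26 FPKM in GFP libraries and at 17.9, 17.9, 15.8 and 17.5 with Tfap2c dsRNA. Every Tfap2c library was above every GFP library, and the change was 0.78 ± 0.12 (adjusted p = 0.000194). Eif3j2 rose by 0.54 (SE 0.12, adjusted p = 0.00269), and since the coding sequences are identical the pair is best read as a single signal.

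Eif4g1, the scaffold that links eIF4E, eIF4A and eIF3, was at 32.3, 26.8, 28.9 and 21.4 FPKM in GFP libraries and at 40.8, 41.5, 38.1 and 39.4 with Tfap2c dsRNA. The groups did not overlap, and Eif4g1 rose by 0.54 (SE 0.12, adjusted p = 0.00314). Its low-level paralog Eif4g3 rose from 2.37 ± 0.549 to 3.6 ± 0.729 FPKM (0.45 ± 0.13, adjusted p = 0.0192), while Eif4g2, the most abundant of the 3 scaffold genes, did not pass and was at 207 ± 16.8 FPKM. Eif3b (0.27 ± 0.09, adjusted p = 0.0254) and Eif5b (0.26 ± 0.08, adjusted p = 0.0198) also rose, and neither passed after rescaling by median ratios. The call of Eif4g3 was lost without GFP B2, Tfap2c A1 or Tfap2c B2, that of Eif3b without GFP A1, GFP A2 or Tfap2c B2, and that of Eif5b without GFP B2, Tfap2c B1 or Tfap2c B2 (highest adjusted p 0.0646, 0.129 and 0.173).

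With Tead4 dsRNA the clearest change among translation factor genes was that of Eif1b. In all, 3 of 60 members (5%) passed, near the 6.13% of all tested genes, with 2 higher and 1 lower (3.35% of tested genes rose and 2.78% fell). Both scaling alternatives gave 2 higher and 2 lower. Eif1b was at 35.8, 29.6, 47.5 and 49 FPKM in GFP libraries and at 64.8, 82.8, 110 and 96.6 with Tead4 dsRNA. All 4 Tead4 libraries were above all 4 GFP libraries, and the mean was 219% of the control mean. The change was 1.11 ± 0.14 (adjusted p = 0.000316), with 1.14 in cross A and 1.08 in cross B, and it passed under each of 25 alternatives. Eif1, the abundant paralog, did not pass and was at 823 ± 108 FPKM in GFP embryos and 860 ± 110 with Tead4 dsRNA. Eif1b thus went from 4.94% ± 1.1 of the level of Eif1 to 10.6% ± 3.62.

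The other 2 genes called with Tead4 dsRNA were Eif1a and Eif3j1. Eif1a was at 142, 125, 139 and 152 FPKM, all below the GFP libraries (-0.53 ± 0.10, adjusted p = 0.00717). Eif3j1 was at 14.2, 13.1, 14.6 and 14 FPKM, all above them (0.50 ± 0.12, adjusted p = 0.0201). That call was lost when GFP library A1, GFP library B2 or Tead4 library B1 was left out (highest adjusted p 0.0685). Eif3j2, which cannot be separated from it, was at 14.1 ± 0.879 FPKM against 11.7 ± 1.76 and did not pass (0.25 ± 0.12, adjusted p = 0.219). Eif4ebp1, at 196, 156, 202 and 239 FPKM, overlapped with GFP and did not pass (-0.21 ± 0.24, adjusted p = 0.7).

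With both dsRNAs 12 of 60 members (20%) passed, 5 higher and 7 lower, against 25.1% of tested genes, of which 13.9% rose and 11.3% fell. The 5 again include the pair Eif3j1 and Eif3j2. Each knockdown was compared with the same 4 GFP libraries, so the 3 comparisons are not independent. Eif1a was at 124, 102, 87.6 and 113 FPKM, all below the GFP libraries, with a change of -0.92 ± 0.10 (adjusted p = 2.73e-05). Eif4ebp1 was at 110, 119, 73.5 and 108 FPKM, again below all GFP libraries (-1.16 ± 0.24, adjusted p = 0.00269), with -0.61 in cross A and -1.70 in cross B. These were the largest falls among members in this comparison.

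Eif5 (-0.36 ± 0.07), Eef1e1 (-0.36 ± 0.09), Eif2b3 (-0.25 ± 0.06), Eif3h (-0.20 ± 0.06) and Eif2d (-0.51 ± 0.17) also fell with both dsRNAs. Eif3j1 was at 16.7, 17.8, 12.7 and 18.4 FPKM, above all GFP libraries (0.70 ± 0.12, adjusted p = 0.000548), and Eif3j2 rose by 0.45. Eif5b rose by 0.31 (SE 0.08). The low-level genes Eif4ebp2, from 2.25 ± 1.11 to 3.57 ± 0.743 FPKM, and Eif5a2, from 1.13 ± 0.203 to 1.92 ± 0.195, passed in this comparison, at 0.55 ± 0.16 (adjusted p = 0.0221) for Eif4ebp2 and 0.46 ± 0.15 (adjusted p = 0.0325) for Eif5a2. The call of Eif4ebp2 was lost without GFP B2 or double-knockdown B1 (highest adjusted p 0.209), and that of Eif5a2 without GFP A1, A2 or B2 or double-knockdown A1, A2 or B1 (0.0983). In the same way Eif2d lost its call without GFP B1, GFP B2, double-knockdown A1 or B1 (0.134), and Eif3h without GFP B1, double-knockdown A2 or B1 (0.0728). Eif5b lost its call without the cross term (0.115). Eif4g1, Eif4g3, Eif3b and Eif4h, which were called with Tfap2c dsRNA, were not called against GFP with both. Eif4g1 was at 31.9 ± 3.18 FPKM with both, against 27.4 ± 4.55 in GFP embryos. None of the genes Eif4g1, Eif4g3, Eif3b and Eif4h was called between both dsRNAs and Tfap2c dsRNA alone.

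**Figure D2:**
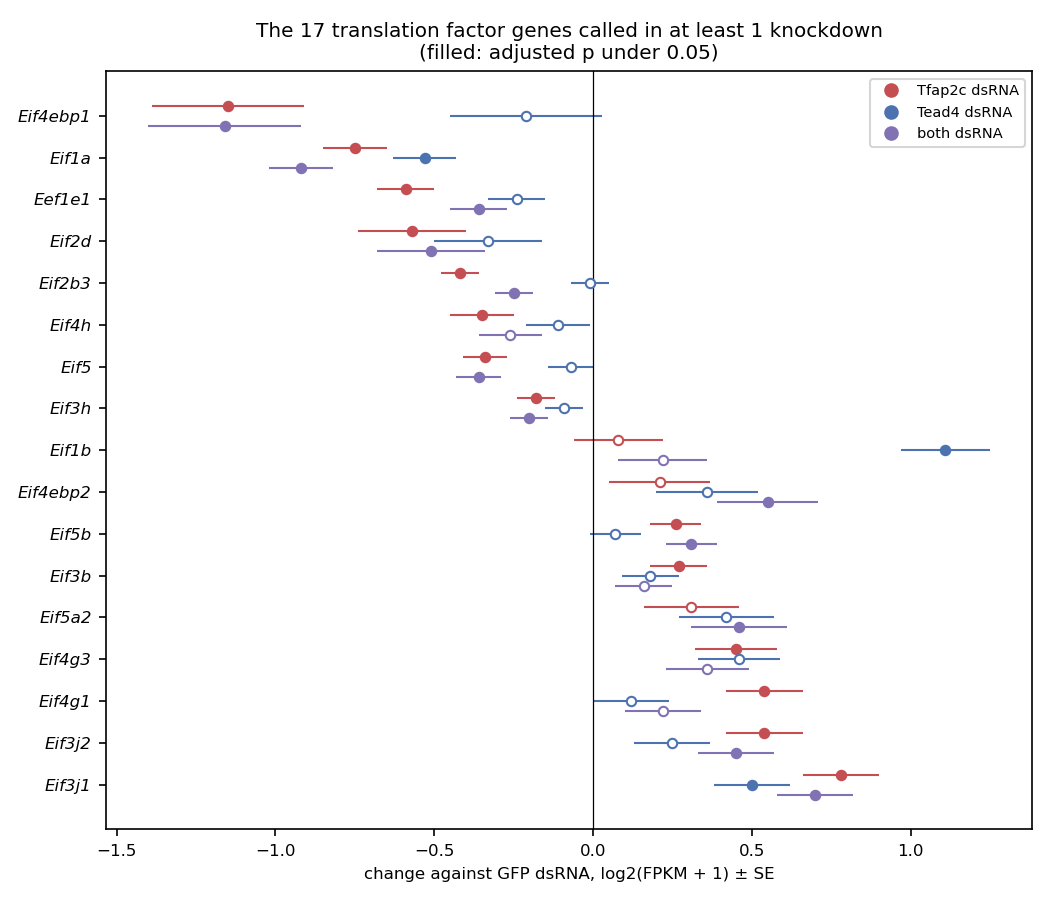
Change against GFP dsRNA on the log2(FPKM + 1) scale (points, with SE bars) for the 17 members called in at least 1 knockdown; filled points passed. Eif4ebp1 lies lowest with Tfap2c dsRNA (-1.15) and with both (-1.16), and Eif1b lies highest with Tead4 dsRNA (1.11).

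Comparing the knockdowns with each other located the differences between them. Between both dsRNAs and Tfap2c dsRNA alone, limma called 0 of 60 members (0.14% of tested genes were called, 0.035% higher and 0.105% lower) and 7 had an unadjusted p under 0.05. The lowest p was that of Eif3f (-0.84 ± 0.25, adjusted p = 0.255). Between both dsRNAs and Tead4 dsRNA alone 10 members (16.7%) passed, 3 higher and 7 lower, against 23.7% of tested genes (10.9% higher and 12.9% lower), and quantile normalization gave 4 higher and 5 lower. Between Tfap2c and Tead4 dsRNA also 10 (16.7%) passed, 3 higher and 7 lower, against 29% of tested genes (13.8% higher and 15.2% lower), and quantile normalization gave 8 higher and 6 lower.

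Eif1b was lower with Tfap2c dsRNA than with Tead4 dsRNA (-1.03 ± 0.14, adjusted p = 7.47e-05). Eif2b3 (-0.40 ± 0.06, adjusted p = 0.000213), Eif1ad (-0.38 ± 0.09), Eif2b1 (-0.36 ± 0.09) and Eef1e1 (-0.35 ± 0.09) were lower too. The comparison of both dsRNAs with Tead4 dsRNA, which uses the same Tead4 libraries, gave -0.89 ± 0.14 for Eif1b (adjusted p = 0.000382), -0.95 ± 0.24 for Eif4ebp1 and -0.87 ± 0.25 for Eif3f (adjusted p = 0.0198, and up to 0.0713 when double-knockdown A1 or B1 was left out). Eif1a was lower with both than with Tead4 dsRNA alone (-0.39 ± 0.10, adjusted p = 0.0132), but not under quantile normalization.

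Eif1b was also the 1 member that passed the non-additive test, which asks whether the change with both dsRNAs departs from the sum of the single changes. It was at 41.7, 42.4, 47.1 and 37.4 FPKM with Tfap2c dsRNA and at 50.9, 44.5, 45.6 and 45 with both, against 64.8 to 110 with Tead4 dsRNA alone. All libraries of the double knockdown thus lay below all those of the Tead4 knockdown, and overlapped with the controls. The non-additive part was -0.97 ± 0.20 (adjusted p = 0.0425), 1 of 60 members (1.67%) against 0.753% of tested genes (0.385% higher and 0.368% lower). It passed in 7 of 24 alternatives, and over the 24 its size ran from -1.08 to -0.87 and its adjusted p from 0.0354 to 0.161. Of the fits that left out a single library, those without Tfap2c B2, Tead4 A1 or double-knockdown A2 kept the call and the others lost it.

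Eif3f, a subunit of eIF3 with an MPN domain, came next and did not pass (-1.52 ± 0.35, adjusted p = 0.0644). It was at 17.7, 8.68, 13.4 and 7.25 FPKM in GFP libraries, 17.9, 21.5, 14.1 and 19.2 with Tfap2c dsRNA, 19.7, 19.5, 17.3 and 17.2 with Tead4 dsRNA and 7.35, 12.4, 6.47 and 14.1 with both. The control and double-knockdown libraries spread widely and overlapped. Eif3f passed when GFP A1 or double-knockdown B2 was left out (lowest adjusted p 0.0377). The next eIF3 gene in the non-additive test, Eif3j1, did not pass either (-0.58 ± 0.17, adjusted p = 0.136).

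**Figure D3:**
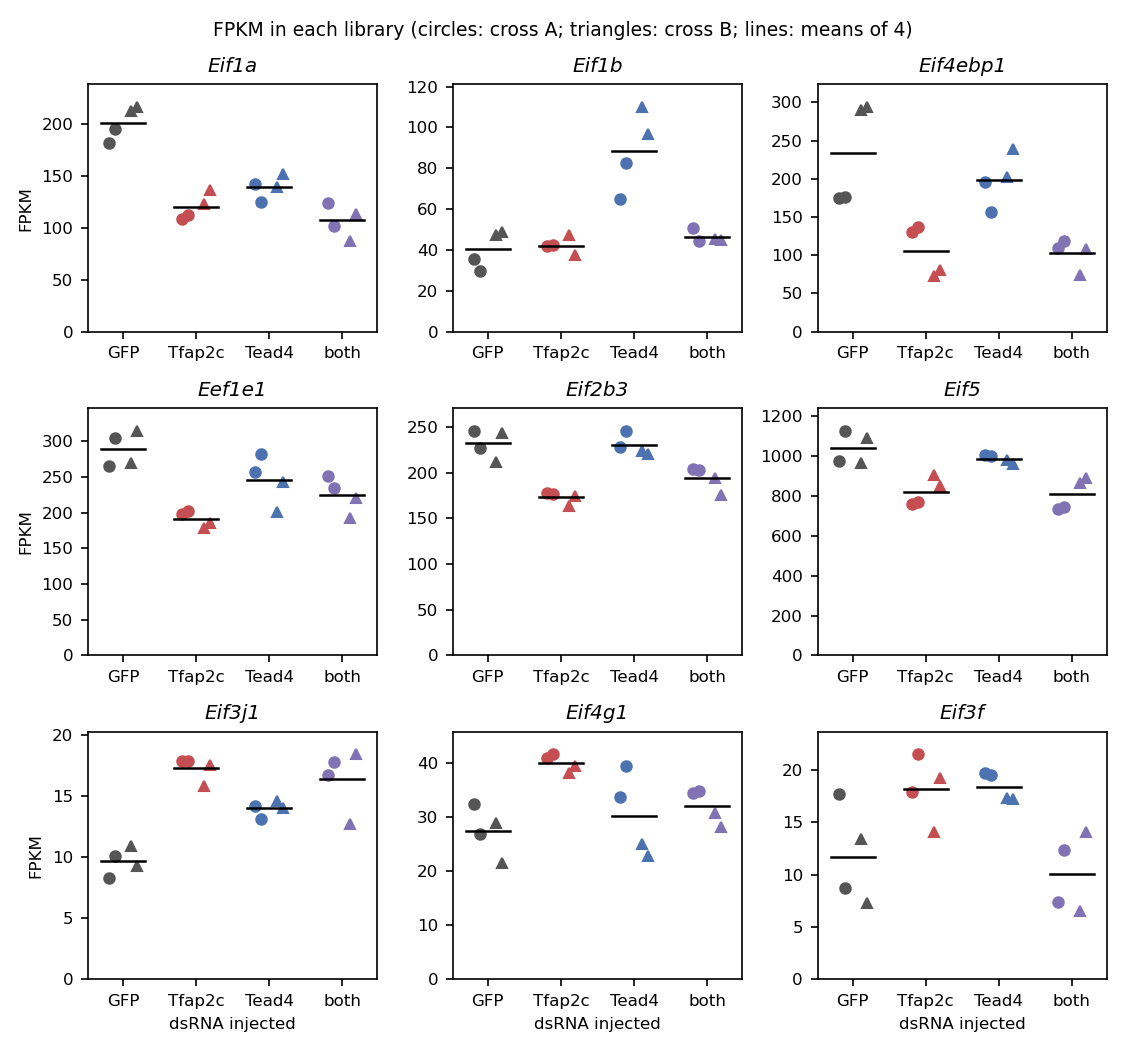
FPKM in each of the 16 libraries for 9 members; circles are cross A, triangles cross B and lines the means of 4 libraries. For Eif1a the 4 GFP libraries (181 to 216 FPKM) lie above all others, and for Eif1b the 4 Tead4 libraries (64.8 to 110) do.

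Between the crosses, which differ in the mothers' strain, 16 members (26.7%) passed, 4 higher and 12 lower in cross B, against 33.5% of tested genes (17.2% higher and 16.3% lower). Eif4e differed most clearly. In cross A its lowest library was at 778 FPKM and its mean at 835 ± 36.8 (n = 8), and in cross B it was at 590 ± 109 (n = 8), from 446 to 737 FPKM. All 8 libraries of cross B were below all 8 of cross A (-0.52 ± 0.08, adjusted p = 0.000204). Within cross B the Tead4 libraries were lowest, at 466 and 446 FPKM, and the test of Tead4 dsRNA against GFP did not pass for Eif4e (adjusted p = 0.428).

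The eIF4A cofactor Eif4b was also lower in every library of cross B (35.3 ± 1.39 against 29.6 ± 1.94 FPKM, -0.25 ± 0.05, adjusted p = 0.00168). Eif4ebp2 was at 3.71 ± 0.686 FPKM in cross A and 2.11 ± 0.732 in cross B (-0.63 ± 0.11, adjusted p = 0.000859). Eif4g1 was lower in cross B as well (-0.28 ± 0.08). Higher in cross B were Eif5b (0.27 ± 0.05, adjusted p = 0.00167), Eif2s2 (0.22 ± 0.05, adjusted p = 0.00334), Eif3b (0.22 ± 0.06) and Eef2 (0.20 ± 0.05). Cross and any difference in how its embryos were collected cannot be told apart.

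**Figure D4:**
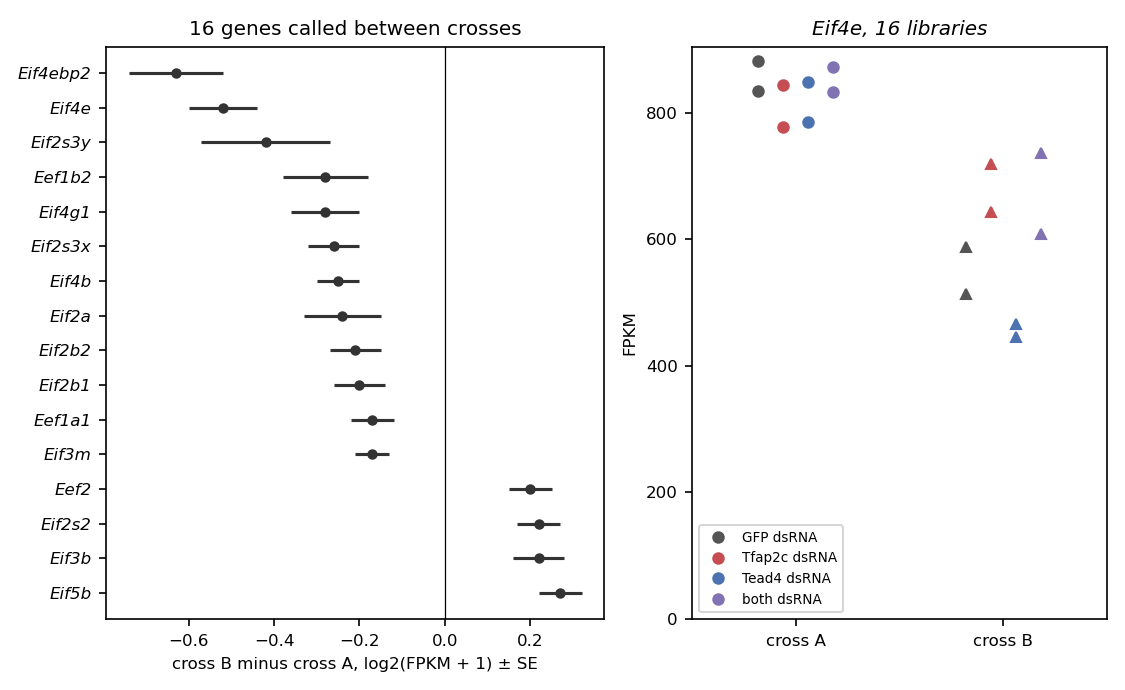
Left, difference between crosses on the log2(FPKM + 1) scale with SE bars for the 16 members called; right, FPKM of Eif4e in 16 libraries. Eif4e in cross B (446 to 737 FPKM) lies below all libraries of cross A (778 to 882).

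Whether a knockdown changed a member differently in the crosses was tested with an interaction term. In limma 0 members passed with Tfap2c, Tead4 or both dsRNAs (0% of tested genes did), and 9, 4 and 7 had an unadjusted p under 0.05. Besides Eif4ebp1, the lowest adjusted p was that of Eif3k with Tfap2c dsRNA (-0.76 ± 0.14, adjusted p = 0.0539). Eif3k was at 402 and 409 FPKM in GFP libraries of cross A and 547 and 569 in cross B, and at 538, 537, 396 and 478 with Tfap2c dsRNA. The order of the groups was thus opposite in the crosses.

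The eIF2 gamma genes on the sex chromosomes were lower in cross B too, Eif2s3x by 0.26 (SE 0.06, adjusted p = 0.005) and Eif2s3y by 0.42 (SE 0.15, adjusted p = 0.0481). The second call held in 6 of 23 alternatives. Over the 16 libraries Eif2s3y was highest in GFP library A2 (32.3 FPKM) and lowest in Tead4 library B1 (9.38). Of the other Y-linked genes Ddx3y was also highest in GFP A2 (14.1 FPKM), while Uty was highest in double-knockdown A1 (3.06) and Kdm5d in Tead4 B2 (1.26). All 3 were lowest in double-knockdown B1 (1.76, 0.394 and 0.173 FPKM), where Eif2s3y was at 14.1. The part of the embryos' sex in these values was not tested.

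Over all tested genes 16.3% rose and 13.2% fell with Tfap2c dsRNA, and the counts by role stand beside those shares with no test. Of 5 eIF1 and eIF1A genes 1 fell (Eif1a), of 5 eIF2B genes 1 fell (Eif2b3), and of 5 eIF4A helicases and helpers 1 fell (Eif4h). Among 6 genes of eIF2 and eIF2-like factors the 1 that fell was Eif2d, and no gene of an eIF2 subunit was called. Among 6 genes with elongation factor names the 1 that fell was Eef1e1, the synthetase accessory protein. Of 3 genes for 4E-binding repressors 1 fell (Eif4ebp1), and of 5 genes for eIF5, eIF5A, eIF5B and eIF6 1 rose (Eif5b) and 1 fell (Eif5). Of 14 eIF3 genes 3 rose and 1 fell, of 3 eIF4G genes 2 rose, and of 3 cap-binding genes none was called. The 3 eIF3 genes that rose include Eif3j1 and Eif3j2, which are best read as a single signal.

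The summed eIF3 level was 3255 ± 71.5 FPKM in GFP embryos, 3242 ± 242 with Tfap2c dsRNA, 3278 ± 169 with Tead4 dsRNA and 3196 ± 98.9 with both. The summed elongation factor level was 3085 ± 135, 3158 ± 384, 2982 ± 195 and 3126 ± 236 FPKM in the same order. That of the eIF4G scaffolds was 250 ± 19.2, 250 ± 15.3, 226 ± 26.4 and 263 ± 14.5 FPKM. The summed level of 4E-binding proteins was 242 ± 67, 116 ± 32.6, 207 ± 33.4 and 115 ± 20.5 FPKM, and nearly all of it was Eif4ebp1. Set against the level of Eif4e, Eif4ebp1 stood at 21% and 20% in the GFP libraries of cross A and at 56.6% and 50% in those of cross B. With Tfap2c dsRNA it stood at 16.7% and 16.2% in cross A and at 10.2% and 12.6% in cross B, so that most of the distance from the controls lay in cross B. With Tead4 dsRNA the values were 25% and 18.4% in cross A and 43.4% and 53.7% in cross B, and with both they were 13.3%, 13.6%, 9.97% and 17.8%.

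Genes of the wider translation pathway were read from lists, whose counts were not tested. They stand beside the shares of all tested genes, which were 16.3% higher and 13.2% lower with Tfap2c dsRNA, 3.35% and 2.78% with Tead4 dsRNA, and 13.9% and 11.3% with both. The median change over all tested genes was 0.061, 0.054 and 0.046 in the same order. In the exon junction complex and its surveillance partners, the complex of which Eif4a3 is a part, 5 of 8 genes rose and 0 fell with Tfap2c dsRNA (16.3% of all tested genes rose), with a median change of 0.32, and 3 of 8 rose with both (13.9%), with a median of 0.32. Upf3b, a factor of nonsense-mediated decay, rose from 22.1 to 46.4 FPKM with Tfap2c dsRNA (1.04 ± 0.16, adjusted p = 0.000242), and its paralog Upf3a from 6.05 to 9.16 (0.54 ± 0.11, adjusted p = 0.0021). Eif4a3 itself was not called (428 ± 12.3 and 476 ± 39.6 FPKM). Among 12 cap-binding competitors and repressors, 1 rose and 1 fell with Tfap2c dsRNA (median 0.22), where 29.6% of all tested genes were called. The one that fell was Ncbp1, the large subunit of the nuclear cap-binding complex, from 54.6 to 31.7 FPKM (-0.77 ± 0.09, adjusted p = 2.41e-05). Ncbp1 was also called lower with Tead4 dsRNA (-0.39 ± 0.09, adjusted p = 0.0193) and with both (-0.90 ± 0.09, adjusted p = 1.09e-05).

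Of 16 genes of the mTORC1 and S6 kinase axis, 1 rose and 1 fell with Tfap2c dsRNA (29.6% of all tested genes were called), 1 rose with Tead4 dsRNA (6.13%), and 4 rose and 2 fell with both (25.1%). The median changes of this list were 0.01, 0.11 and 0.03. Mknk1, a kinase that phosphorylates eIF4E, fell from 11.2 to 6.45 FPKM with both dsRNAs (-0.74 ± 0.13, adjusted p = 0.00106), and Deptor, an inhibitor of mTOR, from 9.28 to 5.35 (-0.69 ± 0.13, adjusted p = 0.00161). Of 8 eIF2 kinases and phosphatase regulators, 1, 1 and 3 rose with Tfap2c, Tead4 and both dsRNAs and 0 fell, where 16.3%, 3.35% and 13.9% of all tested genes rose. Their medians were 0.03, 0.19 and 0.16. Eif2ak3 rose from 2.16 to 4.95 FPKM with both (0.94 ± 0.19, adjusted p = 0.00219) and Impact from 23.8 to 36.9 (0.63 ± 0.13, adjusted p = 0.00267).

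Of 9 genes for the hypusine and diphthamide modifications, which are carried by eIF5A and eEF2, 1 rose and 3 fell with Tfap2c dsRNA (16.3% of all tested genes rose and 13.2% fell), with a median of -0.22. Among them Dph5 fell from 30.9 to 21.2 FPKM (-0.53 ± 0.09, adjusted p = 0.000602) and Dnajc24 from 30 to 22.7 (-0.42 ± 0.12, adjusted p = 0.0149), both of the diphthamide pathway. With both dsRNAs 1 gene of this list rose and 0 fell, and with Tead4 dsRNA limma called 0. Neither Dph5 (-0.16 ± 0.09, adjusted p = 0.222) nor Dnajc24 (-0.23 ± 0.12, adjusted p = 0.165) was called with both. Of 9 termination and recycling genes 0 rose and 1 fell with Tfap2c dsRNA (median 0.14), namely the ribosome rescue factor Pelo, from 3.32 to 0.92 FPKM (-1.15 ± 0.16, adjusted p = 0.000126). Of 6 genes for poly(A)-binding proteins and partners 1 rose (Pabpn1, 0.52 ± 0.16) and 1 fell (Pabpc4, -0.34 ± 0.09), with a median of -0.08. Of 7 selenocysteine insertion genes 2 rose (median 0.08), and of 8 helicases and scanning helpers 2 rose (median 0.23). Of 9 mitochondrial translation factors limma called 0 in any of the 3 comparisons (medians -0.02, 0.04 and -0.13).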

How the data were processed

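Per the labels' protocols, polyadenylated RNA of pooled embryos was reverse transcribed, pre-amplified by Smart-seq2 and made into Illumina libraries with a transposase kit. The deposited values are FPKM per gene, computed by the authors. CASAVA, Trim Galore, STAR, Cufflinks and the mm10 genome are named per the submitters' processing notes. The sources used here give neither their versions and settings nor the gene annotation. Pre-amplification and length scaling can shift levels between genes, and the authors' handling of reads shared by paralogs is not stated.

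Of 43496 lines, 59 repeated an identifier, and the line with the larger sum was kept. Genes with 1 FPKM or more in 4 or more libraries were fitted as log2(FPKM + 1) with limma 3.58.1 in R 4.3.3 (trended eBayes), with terms for group and cross over all 16 libraries. Tests were two-sided, and calls had a Benjamini-Hochberg adjusted p under 0.05 over 11422 genes. A further fit tested the interaction of group and cross. The fit was checked on simulated data. Coding sequences were aligned with Biopython 1.88.

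The members, role groups, pathway lists, motifs and tests were chosen with earlier results of these data known. Named were all members called in a knockdown, the lowest p values elsewhere, the highest and lowest of each role, and paralogs. From a pathway list at most 2 genes were named, those with the lowest p in the comparison described. The Y-linked genes were chosen after their values were seen. Alternatives changed the pseudocount, filter, scaling, cross term, block, variance trend, groups fitted and libraries. Locations are GRCm38.p6 (mm10), matched by symbol, and transcript sequences are GENCODE vM1. The table held 0 columns of samples outside the series. Levels at or near 0 carry no depth, so no counting error could be given.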

Additional observations from a re-analysis of the deposited data

Results flagged for a closer look

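Eif1b stood out in the way the dsRNAs combined. Its change with Tead4 dsRNA was smaller by 0.97 on the log2(FPKM + 1) scale when Tfap2c dsRNA was also present (non-additive part -0.97, adjusted p = 0.0425 in limma). Its change against GFP was also opposite in the crosses with Tfap2c dsRNA, at 0.36 in cross A and -0.20 in cross B, and with both dsRNAs, at 0.53 and -0.09. The interaction tests of these differences gave adjusted p = 0.222 and 0.303, so neither passed.

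Of 120 groups of 4 libraries checked among the named members, 3 held a library far from the others, and chance marks about 5% of groups. Eif1ax was at 56.1 FPKM in Tead4 library B2, against 65.8 to 67.2 in the other libraries of that group. Eif2s3y was at 32.3 FPKM in GFP library A2, against 17.5 to 18.6, and among other Y-linked genes Ddx3y (14.1 FPKM) was highest in that library while Kdm5d (0.75) and Uty (2.27) were not. Eif4g3 was at 4.45 FPKM in Tead4 library A2, against 3.32 to 3.35.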

How the results depend on the processing

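No called change turned its direction under any alternative. Of the members called, 8 of 14 with Tfap2c dsRNA, 2 of 3 with Tead4 dsRNA, 7 of 12 with both, 3 of 10 between both and Tead4 dsRNA, 6 of 10 between Tfap2c and Tead4 dsRNA, 0 of 1 in the non-additive test and 13 of 16 between crosses passed under every alternative. Without the cross term the calls fell to 9 (Tfap2c), 7 (both) and 6 (both against Tead4), and over all genes to 2165, 1786 and 1644, and to 279 with Tead4 dsRNA. The non-additive count was 0 without the filter, without the cross term, with the replicate block and without the variance trend (for all genes 14, 7 and 36 with the first 3 of these), and 0 to 1 when a library was left out (1 was Eif1b without Tfap2c B2, Tead4 A1 or double-knockdown A2 and Eif3f without GFP A1 or double-knockdown B2; 11 to 55 of all genes, against 86, where that count moved by over 1.5 times). Members whose change differed between crosses numbered 1 with a pseudocount of 0.1, 1 without the filter and 2 at a filter of 5 FPKM (Eif4ebp1 each time, with Eif3k), 1 under quantile normalization (Eif3s6-ps2), and 0 to 2 with a library left out (Eif4ebp1 when any 1 of the double-knockdown libraries was left out, Eif2d without double-knockdown B1 or B2, and Eif3s6-ps2 without Tead4 B1 or B2). Leaving out a library gave 8 to 15 calls with Tfap2c dsRNA (8 without Tfap2c B2, 9 without GFP B2) and 5 to 12 between both and Tead4 dsRNA (5 without double-knockdown A1, 6 without Tead4 B2). Over all genes, Tead4 dsRNA gave 403 calls without GFP B2 and 441 without Tead4 B1. Both against Tfap2c dsRNA called 1 to 10 genes in the alternatives that moved that count, against 16. The cause of these shifts was not tested.

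The labels A1 to B2 recur in every group. After group and cross, correlations between libraries with the same label ran from -0.289 to 0.0462 (median -0.143). Those between the 2 labels of a cross ran from -0.335 to 0.144 (median -0.0928). Libraries with the same label thus did not deviate together more than these, and no pairing was assumed. With the replicate block the calls were 14 (Tfap2c), 3 (Tead4), 10 (both), 9 (both against Tead4), 10 (Tfap2c against Tead4) and 14 (crosses). By deviation from the group mean, with cross not removed, 6 of 16 libraries correlated best with their own label.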
